A study of Homo sapiens with 12 samples.

Results

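C-type lectin, Siglec and LILR genes are families of leukocyte surface receptors, and their RNA was followed in U937, a human myelomonocytic leukemia cell line, after treatment with 2 drugs. The set held every gene symbol of the deposited table that starts with CLEC, SIGLEC, LILRA or LILRB followed by a digit, and each symbol was represented by its most highly counted transcript (mean of the 12 libraries). This gave 52 of the 44786 symbols in the table, 30 of them CLEC, 11 SIGLEC and 11 LILR genes, which together had 631 transcript entries. The 4 groups had 3 libraries each. They were untreated cells, cells given 200 nM decitabine (DAC), cells given 1 µM all-trans retinoic acid (ATRA) and cells given both (DAC + ATRA). Once built into DNA in place of cytosine, DAC binds DNA methyltransferases irreversibly, and ATRA activates the retinoic acid receptors. All groups grew in medium with, per the labels, 20% FCS and 5 ng/ml GM-CSF, whereas the methods of the study give a lower share of FCS and name no GM-CSF. The labels give 72 h for the treated cells, 96 h for the untreated cells and 3 days for both agents, whereas the methods of the study give a common harvest and place ATRA beside the third DAC dose. The libraries came from a single cell line, and the series' design text calls them technical triplicates, so the p-values below measure the spread between these libraries, which may be technical. The untreated libraries are not labelled as vehicle-treated.

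C-type lectin receptors recognise sugars, lipids or proteins, and the genes of myeloid and NK cell receptors and their ligands lie side by side on chromosome 12. Siglecs bind sialic acid on neighbouring cells. Most of them carry cytoplasmic motifs that recruit phosphatases and dampen signalling, while a few pair with the activating adaptor DAP12. LILRs are immunoglobulin-like receptors of myeloid cells that recognise MHC class I and related ligands, the LILRB members inhibitory and the LILRA members mostly activating.

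Of the 52 genes, 14 had no read in any library, 22 had reads but stayed under a normalized read count of 10 in at least 3 libraries, and 16 passed that filter. The normalized read count is the number of reads divided by the size factor of the library, and the libraries held 8042435 to 10683593 counted reads. The genes that passed were 8 CLEC and 8 SIGLEC genes, and 0 of the 11 LILR genes. Counts are per transcript entry, and their counting mode is not given. A count at or near 0 therefore does not show that a gene was not expressed. CLEC9A, SIGLEC6, SIGLEC8 and SIGLEC9 did not reach the minimum in every untreated library and passed through treated libraries, so that a rise was required of them. Counts of rises are therefore given with and without them. The chosen entry was annotated as a protein-coding transcript for 13 of the 16, and that of SIGLEC5, which could not be placed on the genome, was taken as protein-coding by its symbol. For CLEC12B and SIGLEC15 it was an entry with a retained intron, and their tests come from a fit of all 19373 transcripts past the filter, not from the fit of the 9016 protein-coding transcripts. A gene is said to have risen or fallen where its adjusted p (limma, Benjamini-Hochberg) was under 0.01.

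Wherever they passed the test in the 6 comparisons made, CLEC genes fell and Siglec genes rose, with CLEC9A, which rose, as the exception among CLEC genes. After DAC, 7 of the 14 protein-coding members passed the test, where 39.3% of all tested transcripts did. Among them 4 fell (8.7% of all tested transcripts fell) and 3 rose (30.6% rose). After ATRA, 5 members passed (9.14% of all), 4 of which fell (2.67%) and 1 of which rose (6.47%). After DAC + ATRA, 12 passed (46.8% of all), with 6 lower (14.2%) and 6 higher (32.6%). Without the 4 genes that passed the filter through treated libraries, 10 members were left, of which 4 fell and 0 rose after DAC, and 6 fell and 3 rose after DAC + ATRA. Those 10 were chosen by their untreated counts, which can favour falls, while the 9016 transcripts were not restricted in this way. CLEC4D, among them, reached the minimum in no DAC + ATRA library. Among these 10, the median log2 fold change of the 6 CLEC genes was −1.11 after DAC and −1.52 after DAC + ATRA, and that of the 4 Siglec genes was 0.47 and 0.70, beside medians of 0.22 and 0.20 over all 9016 transcripts. The medians over all transcripts depended on the scaling, and were 0.02 and 0.06 with edgeR and TMM, where those of the 6 CLEC genes were −1.31 and −1.67 and those of the 4 Siglec genes 0.26 and 0.56. The shares in each direction depended on it too. Under that scaling 17.8% of all tested transcripts fell and 25.4% rose after DAC, and 20.3% fell and 29.2% rose after DAC + ATRA. No member that passed changed direction, and 6 fell and 3 rose after DAC and 6 fell and 5 rose after DAC + ATRA. In the main scaling, 6102 protein-coding transcripts had at least 10 reads in every library. Of these, 1647 rose and 662 fell after DAC (median 0.14), and 1704 rose and 1065 fell after DAC + ATRA (median 0.09).

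**Figure D1:**
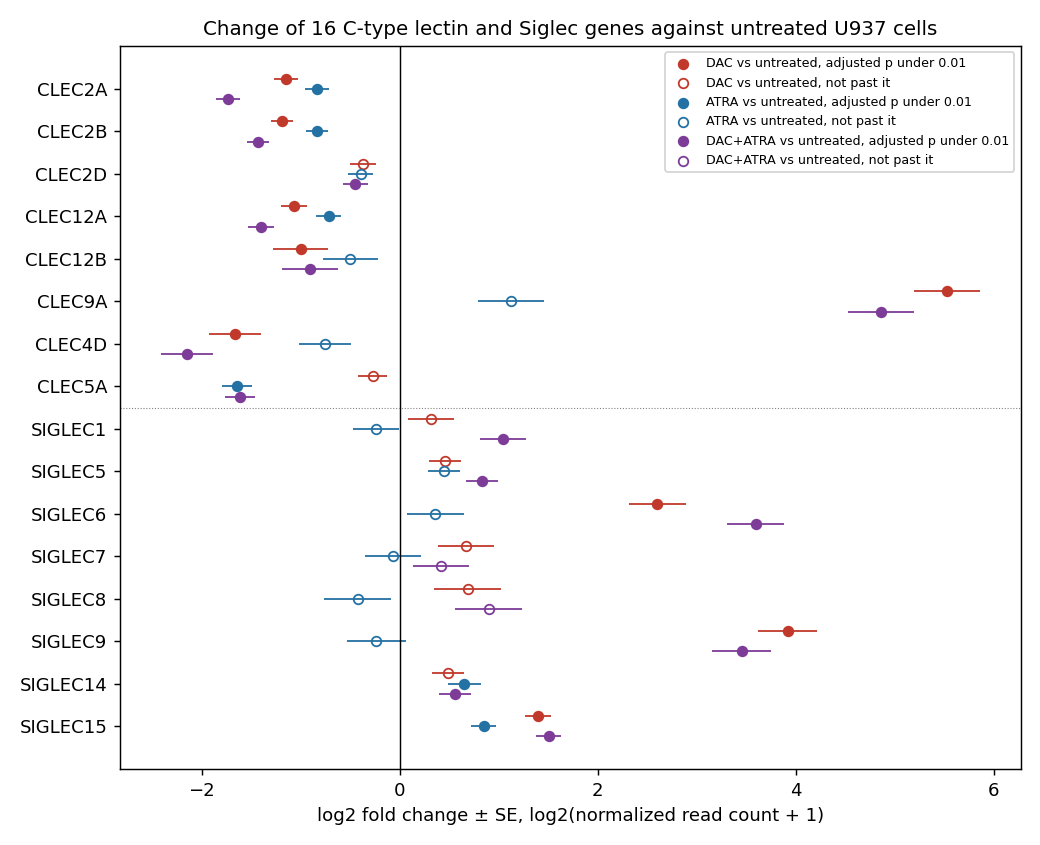
Log2 fold change ± SE of the 16 members past the filter (x axis, on the log2(normalized read count + 1) scale) for each treatment against untreated cells, with filled points where the adjusted p (limma) was under 0.01; CLEC12B and SIGLEC15 are from the fit of all transcripts. CLEC genes lie to the left of 0 except CLEC9A, and the filled points of the Siglec genes lie to the right. The value of CLEC9A after DAC, 5.53, depends on the pseudocount since its untreated libraries held no read.

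CLEC2A, CLEC2B and CLEC2D encode C-type lectin-like ligands of NK cell receptors. CLEC2B, also called AICL and a ligand of the receptor NKp80, had normalized read counts of 1297, 1369 and 1398 in untreated cells. Its libraries gave 512, 593 and 690 after DAC, 722, 725 and 836 after ATRA, and 476, 508 and 520 after DAC + ATRA. All treated libraries lay below all untreated ones, and the DAC and DAC + ATRA libraries overlapped. The log2 fold changes were −1.19 (SE 0.11, adjusted p = 1.8e-08) after DAC, −0.83 (SE 0.11, adjusted p = 1.3e-05) after ATRA and −1.43 (SE 0.11, adjusted p = 7.9e-10) after DAC + ATRA by limma. The fall with both agents was smaller than the sum of the single falls by 0.59 on the log2 scale, with an adjusted p of 0.034 for the interaction, which missed the threshold. Without ATRA library 9 (numbered by its column in the table) the interaction was 0.66 with an adjusted p of 0.0067, and it also passed with DESeq2 at 0.62.

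CLEC2A, whose product is the keratinocyte-associated ligand of NKp65, had 1033, 1038 and 1102 normalized reads in the untreated libraries. After DAC there were 422, 471 and 545, after ATRA 550, 565 and 669, and after DAC + ATRA 282, 318 and 357. The 4 groups did not overlap, and the libraries with both agents were the lowest. The fall was −1.15 (SE 0.12) after DAC, −0.83 (SE 0.12) after ATRA and −1.73 (SE 0.12, adjusted p = 1.3e-10, limma) after DAC + ATRA. CLEC2A was also lower with DAC + ATRA than with DAC alone, by a log2 difference of −0.58 (adjusted p = 0.0014), and than with ATRA alone, by −0.90 (adjusted p = 3e-06). The difference from DAC alone was −0.49 (adjusted p = 0.012) without DAC library 5 and −0.50 (adjusted p = 0.014) without DAC + ATRA library 11, both past the threshold no longer. A second CLEC2A transcript gave −0.80 after DAC (adjusted p = 6.9e-05) and −1.49 after DAC + ATRA (adjusted p = 3.2e-09) in the fit of all transcripts, and its value after ATRA, −0.42 (adjusted p = 0.067), missed the threshold.

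CLEC2D encodes LLT1, the ligand of the receptor CD161, which is the product of KLRB1. It had 283, 328 and 341 normalized reads in untreated cells, 223, 255 and 257 after DAC, 224, 229 and 272 after ATRA, and 209, 233 and 258 after DAC + ATRA. Every treated library lay below every untreated one, while the 3 treated groups overlapped each other. Its change after DAC + ATRA was −0.44 (SE 0.13, adjusted p = 0.0058, limma), and the values after DAC, −0.37 (adjusted p = 0.021), and after ATRA, −0.39 (adjusted p = 0.045), missed the threshold. The call after DAC + ATRA was lost without untreated library 2 (−0.39), untreated library 3 (−0.42), DAC + ATRA library 11 (−0.45) or DAC + ATRA library 12 (−0.37). It was also lost without the filter (adjusted p = 0.023). The value after DAC passed with edgeR and TMM (−0.58), DESeq2 (−0.55), library size scaling (−0.50) and size factors from protein-coding transcripts (−0.54).

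CLEC12A, CLEC12B, CLEC9A, CLEC1A, CLEC1B and CLEC7A form the Dectin-1 cluster on chromosome 12. CLEC12A, known as CLL-1, is an inhibitory receptor of myeloid cells and a surface antigen of leukemic blasts. It had 479, 552 and 558 normalized reads in untreated cells, 227, 249 and 281 after DAC, 297, 312 and 357 after ATRA, and 182, 189 and 231 after DAC + ATRA. No treated library reached an untreated one, and the DAC + ATRA libraries overlapped with the DAC libraries only. The log2 fold changes were −1.07 (SE 0.13, adjusted p = 6.3e-07) after DAC, −0.72 (SE 0.13, adjusted p = 0.0004) after ATRA and −1.40 (SE 0.13, adjusted p = 9.6e-09) after DAC + ATRA by limma. Against DAC alone, the combination differed by −0.33 (adjusted p = 0.086), which did not pass. A second protein-coding CLEC12A transcript gave −1.19 after DAC and −1.60 after DAC + ATRA, whereas an entry with a retained intron gave 0.05 (adjusted p = 0.87) and −0.44 (adjusted p = 0.085).

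CLEC12B, a close relative of CLEC12A with an inhibitory motif, had 39.5, 50.1 and 72.0 normalized reads in untreated cells. It had 22.7, 23.9 and 31.2 after DAC, 20.9, 46.5 and 50.8 after ATRA, and 24.2, 28.9 and 29.7 after DAC + ATRA. The DAC and DAC + ATRA libraries were below the untreated ones, and 1 of the ATRA libraries lay far under the others of its group. In the fit of all transcripts, where 33.5% passed after DAC, 6.97% after ATRA and 41.6% after DAC + ATRA, its change was −0.997 (SE 0.28, adjusted p = 0.0051, limma) after DAC and −0.90 (SE 0.28, adjusted p = 0.0086) after DAC + ATRA. The value after ATRA, −0.50 (adjusted p = 0.31), did not pass. The call after DAC was lost without untreated library 2 (−1.03) or 3 (−0.77) or without DAC library 4 (−0.91) or 6 (−0.95). The call after DAC + ATRA was lost without any 1 of 7 libraries, with values from −0.67 without untreated library 3 to −0.96 without DAC + ATRA library 12, and with a pseudocount of 0.1 (−0.92). These 7 were untreated libraries 2 and 3, DAC libraries 4 and 6, and all 3 DAC + ATRA libraries. The counted entry overlaps 46 bases of CLEC1B on the opposite strand, and although the study describes its libraries as strand-specific, the strand setting of the counting is not given in the sources used here.

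CLEC9A, the dendritic cell receptor DNGR-1 that recognises actin filaments of dead cells, had no read in any of the 3 untreated libraries. The DAC libraries held 40, 42 and 52 reads, the ATRA libraries 1, 1 and 2, and the DAC + ATRA libraries 21, 28 and 32. The DAC and the DAC + ATRA libraries lay apart from all others and did not overlap each other. Measured against 3 reads per untreated library, CLEC9A was at least 16.5-fold higher after DAC and at least 10.3-fold higher after DAC + ATRA (adjusted p = 1.7e-11 and 9.5e-11, limma). CLEC9A passed the filter only through libraries with DAC, so a rise was required for it to be tested. DAC + ATRA was also higher than ATRA alone (adjusted p = 8.4e-09), and no fold is given since the ATRA libraries were under 3 reads each. The interaction was −1.79 on the log2 scale (adjusted p = 0.029) and passed only with a pseudocount of 0.1 among the alternatives at the same threshold, so it rests on how 0 reads are treated. Its neighbours CLEC12A and, on an entry with a retained intron, CLEC12B fell after DAC.

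The other genes of the Dectin-1 cluster stayed under the filter. CLEC1A had 0 reads in the untreated and ATRA libraries, 7, 10 and 26 reads after DAC and 3, 5 and 6 reads after DAC + ATRA. Against 3 reads per untreated library CLEC1A was at least 5.19-fold higher after DAC, without a test, and without DAC library 5, the highest, at least 3.18-fold. CLEC7A, which encodes the β-glucan receptor Dectin-1, had 2 reads over all 12 libraries.

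CLEC4D belongs to the Dectin-2 cluster and encodes MCL, which pairs with the mycobacterial glycolipid receptor Mincle. Its untreated libraries held 31.0, 37.9 and 41.4 normalized reads, the DAC libraries 9.96, 10.7 and 11.9, the ATRA libraries 20.0, 21.1 and 22.8, and the DAC + ATRA libraries 6.18, 7.37 and 9.04. The 4 groups did not overlap. The changes were −1.66 (SE 0.26, adjusted p = 2.1e-05) after DAC and −2.15 (SE 0.26, adjusted p = 5.6e-07) after DAC + ATRA by limma, while the value after ATRA, −0.75 (adjusted p = 0.061), missed the threshold. DAC + ATRA was lower than ATRA alone by a log2 difference of −1.40 (adjusted p = 0.00017). CLEC4E, the gene of Mincle, had 4 reads over all entries and libraries, and CLEC6A, the gene of Dectin-2, had 0. CLEC4C, a marker of plasmacytoid dendritic cells, had no read in untreated and ATRA libraries 15 reads after DAC and 5 after DAC + ATRA, where 1 library held 0.

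CLEC5A lies outside these clusters, on chromosome 7, and encodes a receptor that signals through DAP12. The untreated libraries held 2649, 2841 and 3413 normalized reads and the DAC libraries 2098, 2261 and 3076. There were 767, 949 and 1162 after ATRA and 953, 955 and 985 after DAC + ATRA. Untreated and DAC libraries overlapped, as did ATRA and DAC + ATRA libraries, and the ATRA-containing groups were separate from the others. The log2 fold change was −1.64 (SE 0.15, adjusted p = 1.1e-07) after ATRA and −1.61 (SE 0.15, adjusted p = 2e-08) after DAC + ATRA by limma. After DAC it was −0.27 (SE 0.15, adjusted p = 0.14), and it passed with edgeR and TMM (−0.46), DESeq2 (−0.43) and size factors from protein-coding transcripts (−0.45). Against DAC alone, DAC + ATRA was lower by −1.34 (adjusted p = 1.9e-06), and against ATRA alone it differed by 0.03 (SE 0.15, adjusted p = 0.90), a value whose sign changed with the scaling.

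**Figure D2:**
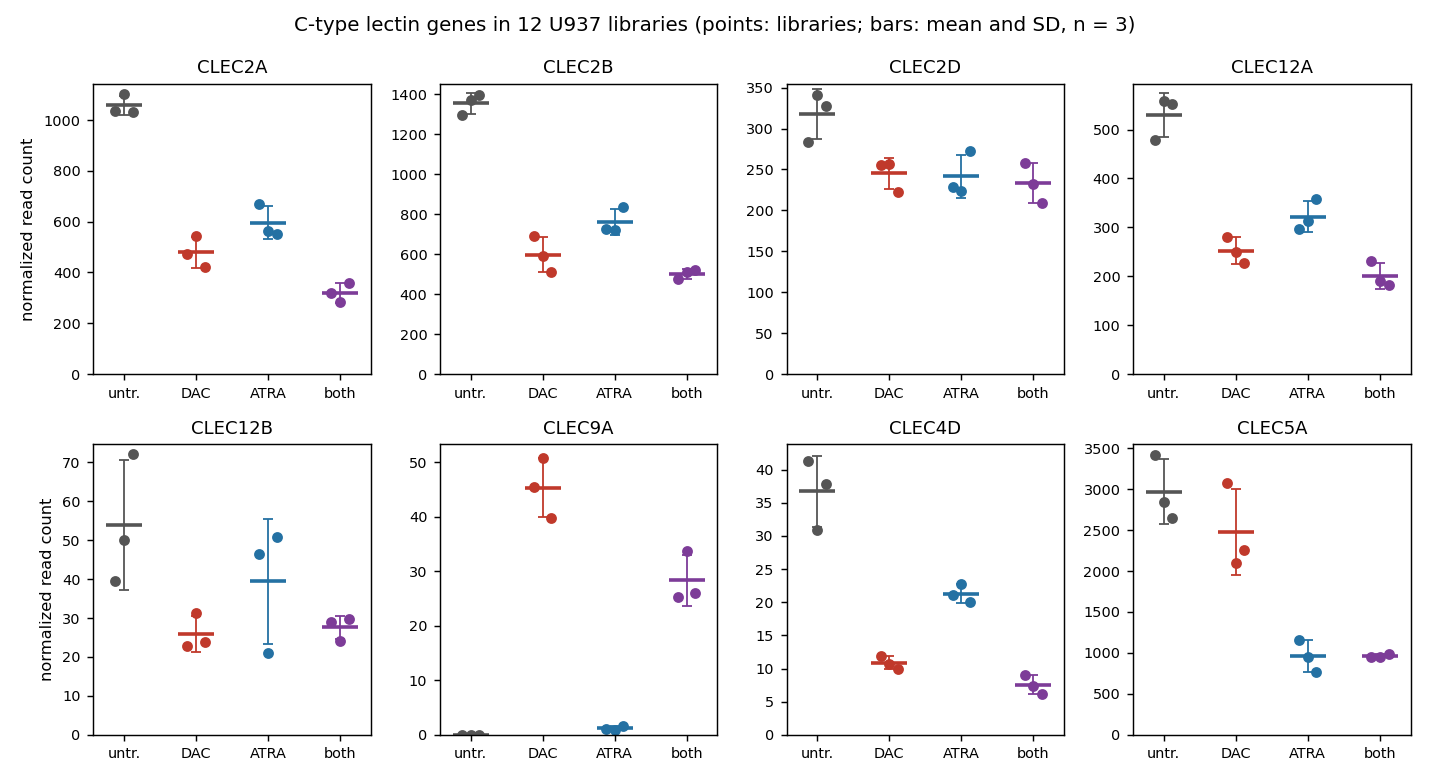
Normalized read counts (y axis, from 0) of 8 CLEC genes in the 12 libraries by group (untr., untreated; both, DAC + ATRA), with points for libraries and bars for the mean and SD of 3 libraries. CLEC5A is lower in the 2 groups with ATRA, CLEC9A is raised in the 2 groups with DAC, and the treated libraries of CLEC2A, CLEC2B, CLEC2D, CLEC12A and CLEC4D lie under all untreated ones.

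Most CD33-related Siglec genes of the set lie together on chromosome 19, in the order SIGLEC9, SIGLEC7, SIGLEC10, SIGLEC8, SIGLEC12, SIGLEC6, SIGLEC5 and SIGLEC14. SIGLEC11 lies at a distance from them on the same chromosome. SIGLEC9, an inhibitory receptor of neutrophils and monocytes, had 4, 12 and 14 reads in the untreated libraries, or 3.69, 10.9 and 12.9 normalized reads. After DAC there were 133, 138 and 142 normalized reads, after ATRA 6.37, 6.66 and 7.39, and after DAC + ATRA 90.2, 101 and 109. The 2 groups with DAC were far above the others, and DAC alone was above DAC + ATRA in every library. The ratio of mean counts to untreated cells was 15.1 after DAC (log2 fold change 3.92, SE 0.30, adjusted p = 6.7e-10, limma) and 10.9 after DAC + ATRA (3.46, SE 0.30, adjusted p = 3.3e-09). SIGLEC9 passed the filter through libraries with DAC, so a rise was required for it to be tested. Against DAC alone the combination differed by −0.46 (adjusted p = 0.34), which did not pass. Further SIGLEC9 transcripts had changes of 2.02 and 2.51 after DAC in the fit of all transcripts (adjusted p = 0.00057 and 0.0001).

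SIGLEC6, an inhibitory Siglec of placenta, mast cells and B cells, had 5.51, 5.54 and 6.37 normalized reads in untreated cells. It had 29.9, 33.5 and 65.3 after DAC, 6.66, 7.28 and 9.50 after ATRA, and 72.9, 78.7 and 93.7 after DAC + ATRA. All 4 groups were separate, with DAC + ATRA the highest. The ratio to untreated cells was 7.38 after DAC (log2 fold change 2.60, SE 0.29, adjusted p = 1.6e-07, limma) and 14.1 after DAC + ATRA (3.60, SE 0.29, adjusted p = 9.7e-10). SIGLEC6 too passed the filter only through libraries with DAC. The log2 difference between DAC + ATRA and DAC was 0.99 (adjusted p = 0.018), which missed the threshold. It was 1.33 (adjusted p = 0.0024) without DAC library 5, the highest of its group, and it passed with edgeR (0.99 with TMM and 0.92 with DESeq2 size factors) with all SIGLEC6 entries summed (1.08) and with only the groups compared in the fit (0.99). The chosen transcript shares all of its 1940 bases with other entries of the table on its strand and 425 bases with an entry on the opposite strand, so reads could be split between them. A further SIGLEC6 entry with a retained intron changed by 2.46 after DAC and 4.09 after DAC + ATRA.

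SIGLEC7, an inhibitory receptor of NK cells, passed in no comparison. It had 11.1, 18.2 and 23.9 normalized reads in untreated cells, 23.4, 29.2 and 30.9 after DAC, 14.1, 16.4 and 18.0 after ATRA, and 18.9, 22.2 and 28.9 after DAC + ATRA. Untreated cells overlapped with each treated group, and the log2 fold change after DAC was 0.67 (SE 0.28, adjusted p = 0.053, limma). SIGLEC8, known from eosinophils and mast cells, had 8.27, 14.6 and 15.7 in untreated cells, 17.9, 20.5 and 23.8 after DAC, 6.66, 7.28 and 14.8 after ATRA, and 19.9, 20.0 and 34.6 after DAC + ATRA. The 2 groups with DAC lay above the untreated libraries, with changes of 0.69 (adjusted p = 0.097) and 0.90 (adjusted p = 0.028) that did not pass. DAC + ATRA exceeded ATRA alone by 1.32 (adjusted p = 0.003), a call lost without ATRA library 8 (1.19), ATRA library 9 (1.13) or DAC + ATRA library 12 (1.07), and with DESeq2 (1.27, adjusted p = 0.013).

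SIGLEC5 and SIGLEC14 are a pair with nearly identical sequence at their outer ends, the first inhibitory and the second coupled to DAP12, so that their reads may be partly exchanged. SIGLEC5 had 92.9, 118 and 130 normalized reads in untreated cells, 148, 156 and 160 after DAC, 122, 157 and 190 after ATRA, and 187, 209 and 209 after DAC + ATRA. The DAC + ATRA libraries were above all untreated and DAC libraries and overlapped with ATRA. Its change was 0.83 (SE 0.16, adjusted p = 0.00016, limma) after DAC + ATRA. The values after DAC, 0.45 (adjusted p = 0.023), and after ATRA, 0.45 (adjusted p = 0.067), did not pass, and without ATRA library 9 they were 0.45 and 0.62 and passed.

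SIGLEC14 had 74.8, 103 and 105 normalized reads in untreated cells, 126, 132 and 134 after DAC, 124, 159 and 161 after ATRA, and 120, 136 and 161 after DAC + ATRA. All treated libraries were above the untreated ones and the treated groups overlapped. The change was 0.66 (SE 0.16, adjusted p = 0.0084, limma) after ATRA and 0.56 (SE 0.16, adjusted p = 0.0063) after DAC + ATRA, and 0.49 (adjusted p = 0.018) after DAC. The call after ATRA was lost without any 1 of 9 libraries, with values from 0.50 without untreated library 3 to 0.74 without untreated library 1. These 9 were all 3 untreated and all 3 DAC libraries, ATRA libraries 7 and 8, and DAC + ATRA library 10. The call after DAC + ATRA was lost without untreated library 3 (0.41), DAC + ATRA library 10 (0.57) or DAC + ATRA library 11 (0.45), with edgeR and TMM (0.42), DESeq2 (0.42), library size scaling (0.41) or size factors from protein-coding transcripts (0.42), and without the filter (0.56, adjusted p = 0.014). That after ATRA was also lost without the filter (0.66, adjusted p = 0.016) and with only the groups compared in the fit (0.66, adjusted p = 0.032).

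SIGLEC1 and SIGLEC15 lie on other chromosomes than the cluster. SIGLEC1, the macrophage receptor sialoadhesin, had 23.0, 25.5 and 27.7 normalized reads in untreated cells, 25.9, 30.2 and 41.1 after DAC, 19.0, 20.0 and 25.5 after ATRA, and 47.4, 47.9 and 66.7 after DAC + ATRA. The DAC + ATRA libraries alone were above every other library. SIGLEC1 rose by 1.05 (SE 0.23, adjusted p = 0.00074, limma) after DAC + ATRA, while the values after DAC, 0.32 (adjusted p = 0.27), and ATRA, −0.24 (adjusted p = 0.58), did not pass. DAC + ATRA was higher than ATRA alone by 1.28 (adjusted p = 0.00013), and differed from DAC alone by 0.73 (adjusted p = 0.035) and from the sum of the single changes by 0.97 (adjusted p = 0.11), neither past the threshold.

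SIGLEC15, a DAP12-coupled Siglec of macrophages and osteoclasts, had 164, 175 and 213 normalized reads in untreated cells, 452, 482 and 522 after DAC, 312, 334 and 347 after ATRA, and 446, 563 and 565 after DAC + ATRA. Every treated library was above every untreated one, and the DAC and DAC + ATRA libraries overlapped. In the fit of all transcripts the change was 1.40 (SE 0.13, adjusted p = 1.6e-09, limma) after DAC, 0.85 (SE 0.13, adjusted p = 2.6e-05) after ATRA and 1.51 (SE 0.13, adjusted p = 2.9e-10) after DAC + ATRA. The interaction, −0.74 (adjusted p = 0.02), missed the threshold, and passed with DESeq2 (−0.72) and without untreated library 1 (−0.85). The counted entry has a retained intron and only 196 of its 2580 bases lie outside other entries on its strand. The protein-coding entry of the same gene was low, with 1.82, 1.85 and 3.68 normalized reads in untreated cells and 6.49, 12.7 and 15.9 after DAC, and changed by 1.84 (adjusted p = 0.0095). It changed by 2.25 (adjusted p = 0.0016) after DAC + ATRA. After ATRA it had 0, 4.55 and 6.34 normalized reads and changed by 0.04 (adjusted p = 0.99). The rise after ATRA thus rests on the entry with a retained intron.

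**Figure D3:**
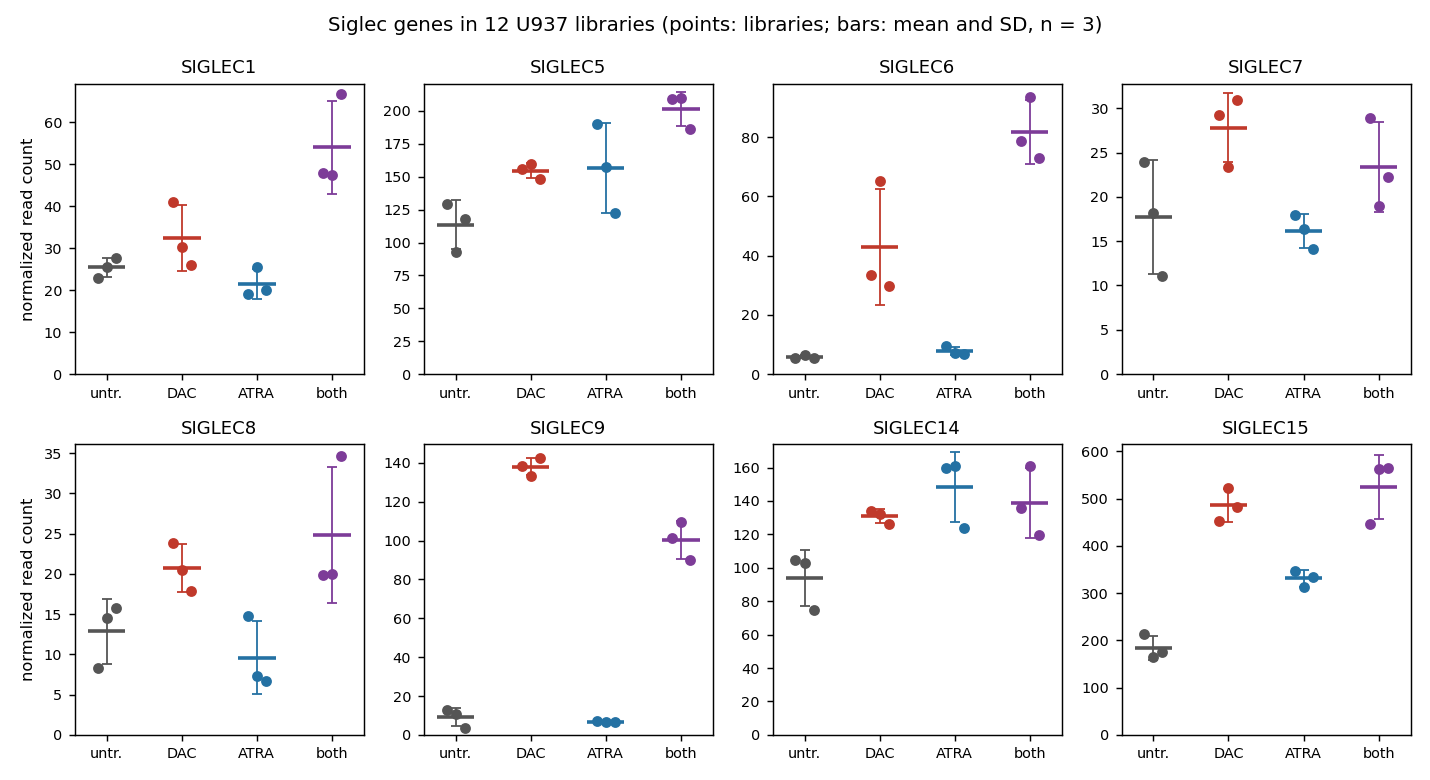
Normalized read counts (y axis, from 0) of 8 Siglec genes in the 12 libraries by group (untr., untreated; both, DAC + ATRA), with points for libraries and bars for the mean and SD of 3 libraries. SIGLEC9 and SIGLEC6 are raised in the 2 groups with DAC, SIGLEC15 (entry with a retained intron) is raised in all treated groups, and SIGLEC7 overlaps between untreated and each treated group.

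Against DAC alone, the combination changed 2 of the 14 protein-coding members, CLEC2A and CLEC5A, both lower, where 11.3% of all tested transcripts passed and 5.26% fell. Against ATRA alone it changed 9 of 14 (34.8% of all), with CLEC9A, SIGLEC1, SIGLEC6, SIGLEC8 and SIGLEC9 higher (25.9% of all) and CLEC2A, CLEC2B, CLEC4D and CLEC12A lower (8.88%). Of the rises, only that of SIGLEC1 remained among the 10 members that reached the minimum in every untreated library, where 1 rose and 4 fell. For the interaction, 0 of the 14 passed with limma (2.46% of all), 5 had an unadjusted p under 0.05, and edgeR called 0 and DESeq2 1. The comparisons share their control libraries.

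DAC acts on DNA methylation, which in mammals sits on cytosines followed by guanine, and the promoters of the members were therefore read for this CG pair. RefSeq promoter windows (GRCh38.p14, 250 bases before to 50 bases after the gene start) were given for 12 of the 16 genes. They held 0 to 13 CG pairs, all below the median of 14 over 35116 windows (quartiles 4 and 28). The windows of CLEC12A, CLEC12B, CLEC5A, CLEC2A and CLEC2D held 0, 1, 2, 4 and 4. Those of SIGLEC8, SIGLEC15, SIGLEC9, SIGLEC14, SIGLEC7, SIGLEC5 and SIGLEC6 held 5, 8, 9, 9, 11, 12 and 13 CG pairs. The families were not separate in this count over the 37 of 52 genes with a window, since untested genes such as CLEC16A held 38, CLEC14A 23 and SIGLEC12 3. No window was given for CLEC2B, CLEC4D, CLEC9A and SIGLEC1. The upstream 250 bases are shown, 5′ to 3′ on the strand of the gene with each CG pair in capitals, for the genes that rose against untreated cells with the most (SIGLEC6, 13) and the fewest (SIGLEC15, 8) CG pairs in the whole window and, chosen after the values were seen, for SIGLEC9, for CLEC12A, which fell after each treatment, and for CLEC5A, which fell with ATRA and whose value after DAC missed the threshold. They are chr19:51531671-51531920 (minus strand) for SIGLEC6, chr19:51124656-51124905 (plus) for SIGLEC9, chr18:45825425-45825674 (plus) for SIGLEC15, chr12:9971159-9971408 (plus) for CLEC12A and chr7:141946975-141947224 (minus) for CLEC5A. The counted SIGLEC15 entry starts 12847 bases downstream of the RefSeq start.
SIGLEC6: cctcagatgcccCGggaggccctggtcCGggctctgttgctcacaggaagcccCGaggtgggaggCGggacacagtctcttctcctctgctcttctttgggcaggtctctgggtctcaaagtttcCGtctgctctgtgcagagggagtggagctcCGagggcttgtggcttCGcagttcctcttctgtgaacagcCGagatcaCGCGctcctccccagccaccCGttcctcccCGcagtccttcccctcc
SIGLEC9: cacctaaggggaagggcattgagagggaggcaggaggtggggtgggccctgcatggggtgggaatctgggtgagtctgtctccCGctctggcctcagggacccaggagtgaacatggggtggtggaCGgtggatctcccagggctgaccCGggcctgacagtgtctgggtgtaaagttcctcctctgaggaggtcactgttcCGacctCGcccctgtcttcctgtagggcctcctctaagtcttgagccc
SIGLEC15: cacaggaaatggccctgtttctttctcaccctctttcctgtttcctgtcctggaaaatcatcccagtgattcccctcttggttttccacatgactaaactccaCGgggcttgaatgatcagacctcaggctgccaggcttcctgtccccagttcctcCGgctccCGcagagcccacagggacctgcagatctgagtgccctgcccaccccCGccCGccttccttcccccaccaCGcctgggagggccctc
CLEC12A: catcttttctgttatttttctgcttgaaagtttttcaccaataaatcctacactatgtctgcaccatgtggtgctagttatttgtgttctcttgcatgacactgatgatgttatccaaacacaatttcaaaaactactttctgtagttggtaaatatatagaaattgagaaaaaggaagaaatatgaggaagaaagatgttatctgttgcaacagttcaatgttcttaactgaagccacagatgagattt
CLEC5A: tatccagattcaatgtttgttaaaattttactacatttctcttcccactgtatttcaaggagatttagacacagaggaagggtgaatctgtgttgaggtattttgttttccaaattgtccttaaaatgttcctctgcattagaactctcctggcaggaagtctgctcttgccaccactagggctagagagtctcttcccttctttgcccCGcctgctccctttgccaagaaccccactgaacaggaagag

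The shown bases hold 12 CG pairs for SIGLEC6, 5 for SIGLEC9 and 6 for SIGLEC15, beside 1 for CLEC5A and 0 for CLEC12A. Methylation itself was not measured in these files. Of 3 motifs searched on both strands, none of which contains another, GAGGAA (the core of PU.1-type sites) was in 9 of the 12 windows and in 27.9% of all windows. AGGTCA (the half-site of nuclear receptors) was in 4 of 12, those of SIGLEC7, SIGLEC8, SIGLEC9 and SIGLEC14, and in 13.8% of all. An interferon-type element, GAAA followed after 2 further bases by GAAA, was in 0 of 12 and 3.57% of all.

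LILR genes could not be read from this table. Their 11 symbols had 407 entries, of which 338 could not be placed on the primary assembly with GENCODE 44 and 69 could, and the placed entries held 0 reads. The 19 reads counted, 13 for LILRA6 and 6 for LILRB4, were all on unplaced entries. The table gives no coordinates, so copies on alternate haplotypes and retired transcripts could not be told apart among the unplaced entries. The genes around the LILR genes on chromosome 19 behaved alike. Of 28 other protein-coding symbols within 250 kb of the LILR genes, 27 had unplaced entries, 20 had 0 reads and 27 had under 50 reads over the 12 libraries. They include genes that every cell uses, such as RPS9 of the ribosome with 17 reads, NDUFA3 of the respiratory chain with 48, the splicing factor PRPF31 with 2 and CNOT3 of the mRNA deadenylase complex with 0. LAIR1, the collagen receptor, was the exception with 364 reads. Over the whole table, 79.7% of the 1037 symbols with at least 50% of their entries unplaced had under 10 reads, beside 28.8% of the 15691 symbols with every entry placed. The LILR genes are therefore given as listed at or near 0, which does not show that they were not expressed. Of the CLEC entries 16 were unplaced and held 0 reads, and of the Siglec entries 1 was unplaced, which is the SIGLEC5 entry used here with 1909 reads.

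**Figure D4:**
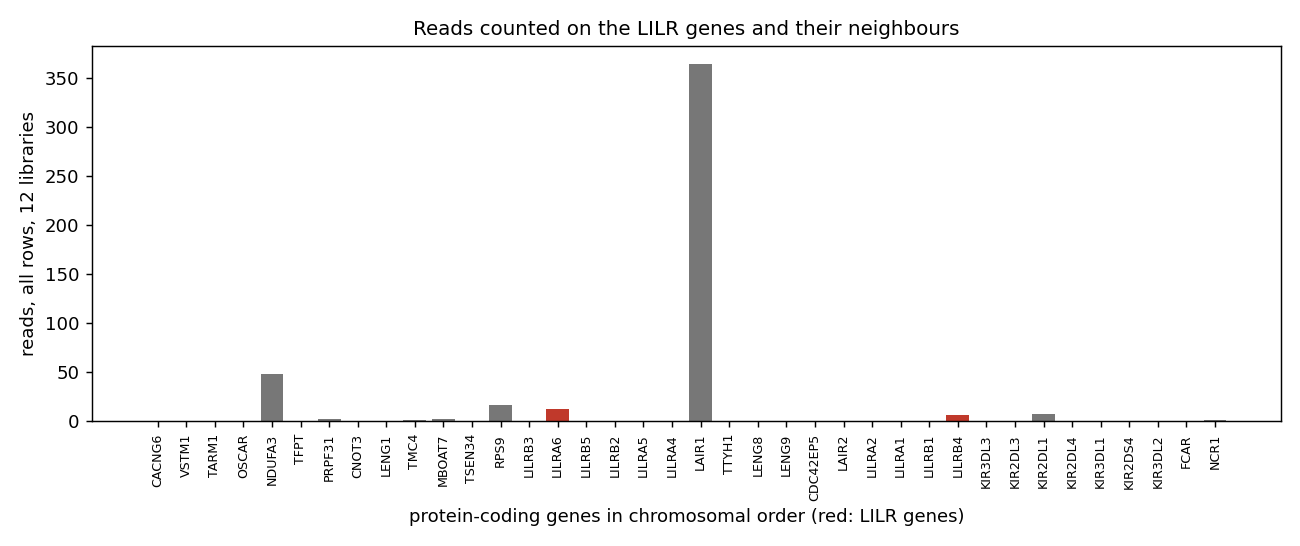
Reads summed over all entries of a symbol and 12 libraries (y axis, from 0) for the LILR genes (red) and the other protein-coding genes around them (grey) in chromosomal order on the x axis. LILRA6 has 13 and LILRB4 6 reads, the other LILR genes have 0, and LAIR1 stands out with 364.

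The other genes that work with these receptors include adaptors, kinases and phosphatases. TYROBP, the gene of DAP12, had no read on a protein-coding transcript. Its most abundant entry of another type had 0.919, 0.924 and 2.73 normalized reads in untreated cells and 20.0, 21.0 and 25.3 after DAC + ATRA, without a test. FCER1G and SYK, the adaptor and kinase of activating C-type lectins, were listed at 0 in the untreated libraries. For these genes too, such values do not show that they were not expressed. Of 15 genes of activating signalling, 6 were tested, of which HCST, the gene of the adaptor DAP10, did not reach the minimum in every untreated library and passed in no comparison. Of the other 5, 3 rose and 0 fell after DAC (median 0.60), 1 rose after ATRA (median 0.12), and 4 rose and 0 fell after DAC + ATRA (median 0.71), where 30.6%, 6.47% and 32.6% of all tested transcripts rose. The highest were MALT1 of the CARD9 complex after DAC with 0.77 (adjusted p = 5.1e-05, limma) and the kinase LYN after DAC + ATRA with 0.74 (adjusted p = 2e-05). Of 5 genes of inhibitory signalling, all tested, SOCS3 rose after DAC by 1.25, after ATRA by 0.58 and after DAC + ATRA by 2.02 (adjusted p = 2e-11), and PTPN11, the gene of the phosphatase SHP2, fell by 0.30 after DAC (adjusted p = 0.0081) and by 0.41 after DAC + ATRA (adjusted p = 0.00053). PTPN6, the gene of the phosphatase SHP1, which was under the minimum in an untreated library, differed by 0.95 after DAC + ATRA (adjusted p = 0.033), which missed the threshold.

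Of 32 lectin and leukocyte receptor genes without these symbols, 10 were tested. After DAC 4 rose and 1 fell, after ATRA 2 rose and 0 fell, and after DAC + ATRA 6 rose and 1 fell. Of these 10, CD22, CD209, LY75 and MRC1 did not reach the minimum in every untreated library and passed through treated libraries. Without them 6 were left, of which 2 rose and 1 fell after DAC, 1 rose and 0 fell after ATRA, and 2 rose and 1 fell after DAC + ATRA. Of all tested transcripts, 30.6% rose and 8.7% fell after DAC, 6.47% and 2.67% after ATRA, and 32.6% and 14.2% after DAC + ATRA. The largest rise after DAC was that of MRC1, the macrophage mannose receptor, from 9.24, 12.7 and 20.2 to 787, 1050 and 1443 normalized reads (log2 fold change 6.20, adjusted p = 3.1e-13, limma). CD22, which is Siglec-2, rose after ATRA from 0.910, 0.919 and 4.62 to 18.0, 33.3 and 37.3 normalized reads (log2 fold change 3.41, adjusted p = 6e-06) and passed the filter through libraries with ATRA. KLRB1, the gene of the CLEC2D receptor CD161, was the one that fell, by 0.86 after DAC and by 1.45 after DAC + ATRA (adjusted p = 7.2e-05). CD33, which is Siglec-3, was counted almost wholly on an entry that is not a protein-coding transcript, with 807, 839 and 892 normalized reads in untreated cells and 730, 733 and 817 after DAC + ATRA. CD69, the neighbour of the CLEC2 genes, had 2450, 2472 and 2537 in untreated cells and 2050, 2080 and 2332 after DAC + ATRA (log2 fold change −0.21, adjusted p = 0.15). Of 19 genes that make, transfer or remove sialic acid, the Siglec ligand, 7 were tested. After DAC and after DAC + ATRA 1 rose and 3 fell, and after ATRA 0 rose and 1 fell. The shares of all tested transcripts to set beside these counts are the percentages given above in this paragraph. ST6GALNAC4 rose by 1.32 after DAC and ST6GALNAC3 fell by 1.18 after DAC and by 1.20 after DAC + ATRA (adjusted p = 2.3e-07).

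Markers of other cell types were read beside these values. Of 12 myelomonocytic markers 7 had a mean of at least 10 normalized reads over the 12 libraries. The sum of all 12, most of it from MPO, was 54128 to 60552 in untreated libraries, 26710 to 40249 after DAC, 32649 to 44745 after ATRA and 23789 to 25279 after DAC + ATRA. PTPRC, the gene of CD45, was listed at 0, which does not show that it was not expressed. Of 4 B cell markers, CD79A and PAX5 were counted and the sum moved with the treatments, from 485 to 557 in untreated libraries to 1654 to 1780 after DAC + ATRA. T cell and epithelial markers summed to at most 14.8 and 20.9, NK cell markers to 8.96 to 16.2, and erythroid markers were at 0. The part of these changes in the results above was not tested, and in bulk RNA fewer cells with a transcript and less RNA per cell cannot be told apart.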

How the data were processed

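RNA of U937 cells was sequenced in 12 libraries, 3 per group. According to the study, reads were aligned to hg38 with STAR, counted with htseq-count and tested with DESeq2, and the submitters' processing notes also name FastQC. Versions, annotation release, counting mode and strand setting are not given in the sources used here. The deposited signal values are, per transcript, the authors' read counts divided by 1 size factor per library. Division by the value of 1 read returned whole reads for 100% of entries in each library (largest deviation 5.68e-05 of a read), so reads were recovered. The columns name the group of a library but not its label, and they were used by group.

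Of 197782 transcripts, 174768 were placed with GENCODE 44. The 9016 protein-coding transcripts that reached 10 normalized reads in 3 or more libraries entered limma 3.58.1 in R 4.3.3 (eBayes, trend and robust). The values were log2-transformed after adding a pseudocount of 1, and 1 fit held the 4 groups, with Benjamini-Hochberg adjustment within each of the 6 comparisons and a threshold of 0.01. The plan allowed for raw counts, and the test for normalized values applied. Fold changes on this scale understate changes of low genes. The interaction is the log2 change with both agents less the sum of the single changes. Where all untreated libraries had 0 reads, folds are bounds against 3 reads per library, which equal 2.50 to 3.71 normalized reads. Size factors ran from 0.809 to 1.20. Bounds cover counting error only. Chi-square tests of each pair of replicates exceeded counting noise, and no libraries were merged.

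Every gene past the filter is named, and genes under it only as examples. From each further list the highest and lowest tested genes were eligible, with TYROBP, FCER1G, SYK, PTPN6, CD33 and CD69. Members and lists were chosen with earlier results of these data known. The alternatives were edgeR 4.0.16 and DESeq2 1.42.0 on the recovered reads, library size scaling, other filters, a pseudocount of 0.1, a threshold of 0.05, all transcripts, sums by symbol, only the groups compared, each library left out, and, chosen after the data were seen, size factors from protein-coding transcripts. The fits were tested on simulated data. Promoter sequences are from RefSeq (GRCh38.p14), and 37 of the 52 genes had a window. Where a gene had several, the window nearest the start of the counted transcript was used. The counted SIGLEC5 transcript has no placed start, and SIGLEC5 had 1 window. Tables were made in Python 3.11.15 with pandas 2.3.3.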

Additional observations from a re-analysis of the deposited data

Results flagged for a closer look

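Several genes under the filter on low values had normalized read counts in every library of a treatment that were above every untreated library. They were 5 of 22 such members after DAC, 1 after ATRA and 3 after DAC + ATRA, where over 3 reads were asked for in the treatment. Of all 14959 symbols with reads whose most highly counted entry was under the filter, 14.3% met this after DAC, 2.47% after ATRA and 13.9% after DAC + ATRA. They entered no test, and reads are sums over 3 libraries. CLEC1A had 43 reads after DAC and 14 after DAC + ATRA, and 0 in untreated cells. CLEC1B, the platelet podoplanin receptor gene, had 17 reads after DAC and 8 in untreated cells, where its lowest DAC library and 2 untreated libraries held 4 reads each and only the size factors separated them. CLEC4C had 15 reads after DAC and CLEC10A, a galactose-binding lectin gene of dendritic cells and macrophages, had 5 after DAC + ATRA, both with 0 in untreated cells. LILRA6 had 8 reads after DAC and 0 in untreated cells, on unplaced entries only. SIGLEC11, an inhibitory Siglec of macrophages and microglia, had 6 reads after DAC, 21 after ATRA and 17 after DAC + ATRA, and 1 in untreated cells, as many as in its lowest DAC library. The difference of these genes between treatments was not tested.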

How the results depend on the processing

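For 54 combinations of gene and comparison that passed in at least 1 setting, 1262 alternative values were computed, of which 1189 kept their direction and their side of the threshold, 42 lost the call, 31 gained it and 0 changed direction. Counts of members past the threshold moved by over 1.5 times in the following cases, which involve fewer genes tested or fewer libraries by construction, or for which the cause was not tested. With at least 10 reads in every library, 3 passed after DAC and 4 for DAC + ATRA against ATRA. At an adjusted p under 0.05, 4 passed for DAC + ATRA against DAC and 2 for the interaction. For the interaction, 1 passed with DESeq2 and 1 with a pseudocount of 0.1. When each library was left out in turn, the counts ranged from 7 to 8 after DAC, from 4 to 6 after ATRA, from 10 to 12 after DAC + ATRA, from 1 to 2 for DAC + ATRA against DAC (1 without DAC + ATRA library 11), from 8 to 9 against ATRA, and from 0 to 1 for the interaction (1 without ATRA library 9). No paired analysis was possible because the columns of the table carry none of the replicate numbers of the labels. With groups of 3, an exact permutation test of a single gene cannot go below 0.1. Genes with few reads, paralogs such as SIGLEC5 and SIGLEC14, and transcripts that overlap others limit what single values show.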
